A study of Mus musculus with 9 samples.

Results

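Cyclins are the regulatory partners of the cyclin-dependent kinases (CDKs), and the 8 genes examined here cover the main steps of the mitotic cycle: the D cyclins Ccnd1, Ccnd2 and Ccnd3, the E cyclins Ccne1 and Ccne2, the A cyclin Ccna2, and the B cyclins Ccnb1 and Ccnb2. All probe sets annotated to exactly 1 of these symbols were taken, which gave 16 of the 22690 probe sets on the array and 7 of the 12393 genes with a symbol of their own. Ccnd2 had 7 probe sets, Ccnd1 3, Ccna2 2, and Ccnd3, Ccne1, Ccne2 and Ccnb2 had 1 each, while no probe set was annotated to Ccnb1 alone and it was not analysed here.

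RNA came from whole mouse embryos at 9.5 days post coitum, hybridised to 9 Affymetrix arrays in 5 genotype groups. Notch1 null embryos were homozygous for the targeted allele Notch1tm1Con (2 arrays), Notch1 het embryos carried it over a wild-type allele (1 array), Dll3 null embryos were homozygous for the allele Dll3neo (2 arrays), Dll3 het embryos were heterozygous for it (2 arrays), and wild-type embryos had normal alleles of both genes (2 arrays). Notch1 is a receptor and Dll3 a ligand-like protein of the Notch pathway. The labels name C57BL/6J for 1 Notch1 null array and no strain for the others, and do not say whether an array holds 1 embryo or a pool, or whether replicates had different mothers. The p-values therefore describe scatter among arrays, which may be technical. The deposited values are ratios to a number per probe set, so they compare arrays but not genes, and they do not show whether a transcript, or a marker of any tissue, was detected at all. In whole embryos a lower ratio does not tell fewer cells of a type from less RNA per cell.

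D cyclins pair with CDK4 and CDK6 in early G1, in answer to growth signals, and start the phosphorylation of the retinoblastoma protein. E cyclins pair with CDK2 at the entry into S phase, cyclin A2 with CDK2 and CDK1 from S phase into G2, and B cyclins with CDK1 in mitosis. Transcripts of the E, A and B cyclins are made in waves over the cycle, many of them under E2F factors, whereas Ccnd1 follows signals from outside the cell and has been reported as a Notch target in cultured cells.

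The RefSeq promoter table (GRCm38.p6) held 5 start sites of 4 of the 8 genes. The 250 bases before the start are shown for Ccne1, the cyclin with the lowest ratios in Notch1 null embryos, and for Ccnb2, a mitotic cyclin whose difference from wild type did not pass. Ccne1 lies on the minus strand (chr7:38107491-38107740) and Ccnb2 on the minus strand (chr9:70421555-70421804). Capitals mark matches, on either strand, to the CCAAT box (CCAAT) or to the cell cycle homology region of mitotic promoters (TTTGAA).
Ccne1: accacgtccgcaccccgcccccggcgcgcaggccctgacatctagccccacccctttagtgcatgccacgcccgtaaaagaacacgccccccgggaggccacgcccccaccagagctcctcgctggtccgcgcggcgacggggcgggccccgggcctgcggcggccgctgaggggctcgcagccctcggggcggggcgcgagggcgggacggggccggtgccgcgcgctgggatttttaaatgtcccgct
Ccnb2: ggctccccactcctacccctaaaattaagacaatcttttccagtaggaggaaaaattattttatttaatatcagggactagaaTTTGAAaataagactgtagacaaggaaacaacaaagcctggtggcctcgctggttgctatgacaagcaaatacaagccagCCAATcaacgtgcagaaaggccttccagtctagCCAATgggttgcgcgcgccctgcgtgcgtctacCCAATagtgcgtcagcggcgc
The Ccnb2 window held 3 CCAAT matches, which begin 87, 54 and 21 bases before the start, and 1 TTTGAA match at 167 bases, and these matches do not overlap. The Ccne1 window held 0 of either, and both windows held 0 matches to TGGGAA, the core bound by the Notch effector RBPJ, and 0 to the E2F letters TTTNGCGC. Of the windows not shown, that of Ccnb1 held 1 TGGGAA match, 95 bases before the start, and 2 CCAAT matches. A Ccnd3 window held 1 CCAAT match. Among 32851 RefSeq windows of the same length, 33.8% held CCAAT, 16% TTTGAA, 21.6% TGGGAA and 1.13% TTTNGCGC. A match is a description of letters, and no match says nothing about the factor.

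Ccne1 was the cyclin that set Notch1 null embryos apart most clearly. Its ratios were 0.569 and 0.518 in Notch1 null, 1.324 in Notch1 het, 1.052 and 0.892 in Dll3 null, 1.000 and 0.994 in Dll3 het, and 1.196 and 1.339 in wild type. Both Notch1 null arrays lay below all 7 others, of which the lowest was 0.892, and the Notch1 het array lay within the range of wild type. Ccne1 was thus 2.33-fold lower in Notch1 null than in wild type (log2 -1.22 ± 0.12 SE, n = 2 each, limma adjusted p = 0.00125), 2.44-fold lower than in the Notch1 het array (log2 -1.29 ± 0.15, adjusted p = 0.00749) and 1.78-fold lower than in Dll3 null (log2 -0.84 ± 0.12, adjusted p = 0.00772). The call against wild type held without each of the 9 arrays in turn, with an adjusted p up to 0.0246. The call against Notch1 het ended without Notch1_null replicate 2 (adjusted p = 0.068), and that against Dll3 null ended without it (0.0867) and without Dll3_null replicate 1 (0.0531). Against wild type, the log2 difference was 0.07 ± 0.15 in Notch1 het, -0.39 ± 0.12 in Dll3 null (adjusted p = 0.319) and -0.34 ± 0.12 in Dll3 het (adjusted p = 0.205). The 4 Dll3 arrays all lay below both wild-type arrays, yet these differences did not pass.

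The other E cyclin gene, Ccne2, had ratios of 1.000 and 0.735 in Notch1 null, 0.995 in Notch1 het, 1.119 and 1.181 in Dll3 null, 1.153 and 0.962 in Dll3 het, and 0.949 and 1.182 in wild type. Notch1 null and wild type overlapped, and their log2 difference of -0.30 ± 0.17 did not pass (adjusted p = 0.327). Whether Ccne1 and Ccne2 differ in their response was not tested.

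Ccnd1 was also lower in Notch1 null embryos. At probe set 1448698_at its ratios were 0.732 and 0.655 in Notch1 null, 0.950 in Notch1 het, 1.075 and 0.999 in Dll3 null, 1.011 and 1.058 in Dll3 het, and 1.000 and 1.034 in wild type. Both Notch1 null arrays lay below all others, and the remaining 7 arrays spanned only 0.950 to 1.075. The fall against wild type was 1.47-fold (log2 -0.55 ± 0.11, adjusted p = 0.0147) and against Dll3 null it was -0.58 ± 0.11 on the log2 scale (adjusted p = 0.0168), while the Notch1 het array did not differ past the threshold from Notch1 null (log2 -0.46 ± 0.13 for null minus het, adjusted p = 0.115) or from wild type (log2 -0.10 ± 0.13 for het minus wild type).

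Probe set 1417420_at gave 0.772 and 0.694 in Notch1 null, 1.000 in Notch1 het, 0.830 and 1.047 in Dll3 null, 1.099 and 0.912 in Dll3 het, and 1.142 and 1.209 in wild type, and it was 1.61-fold lower in Notch1 null than in wild type (log2 -0.68 ± 0.14, adjusted p = 0.0195). Probe set 1417419_at gave 0.744 and 0.578 in Notch1 null, 0.620 in Notch1 het, 0.701 and 1.136 in Dll3 null, 1.033 and 1.075 in Dll3 het, and 1.015 and 1.000 in wild type. Here Notch1 het and 1 Dll3 null array were as low as Notch1 null, and the log2 difference of Notch1 null from wild type, -0.62 ± 0.21, did not pass (adjusted p = 0.0964). Averaged over its 3 probe sets, Ccnd1 was 1.54-fold lower in Notch1 null than in wild type (adjusted p = 0.0121), while the average against Dll3 null did not pass (log2 -0.46 ± 0.12, adjusted p = 0.0512), nor did 1417420_at (log2 -0.35, adjusted p = 0.205) or 1417419_at (log2 -0.44, adjusted p = 0.263). The 1448698_at call against wild type ended without Notch1_null replicate 2 (adjusted p = 0.113), wild_type replicate 1 (0.0672) or wild_type replicate 2 (0.0919), and against Dll3 null without Notch1_null replicate 2 (0.138) or Dll3_null replicate 1 (0.0977). The 1417420_at call ended without any 1 of the 4 arrays compared (adjusted p from 0.0653 to 0.148) and after quantile normalization.

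**Figure D1:**
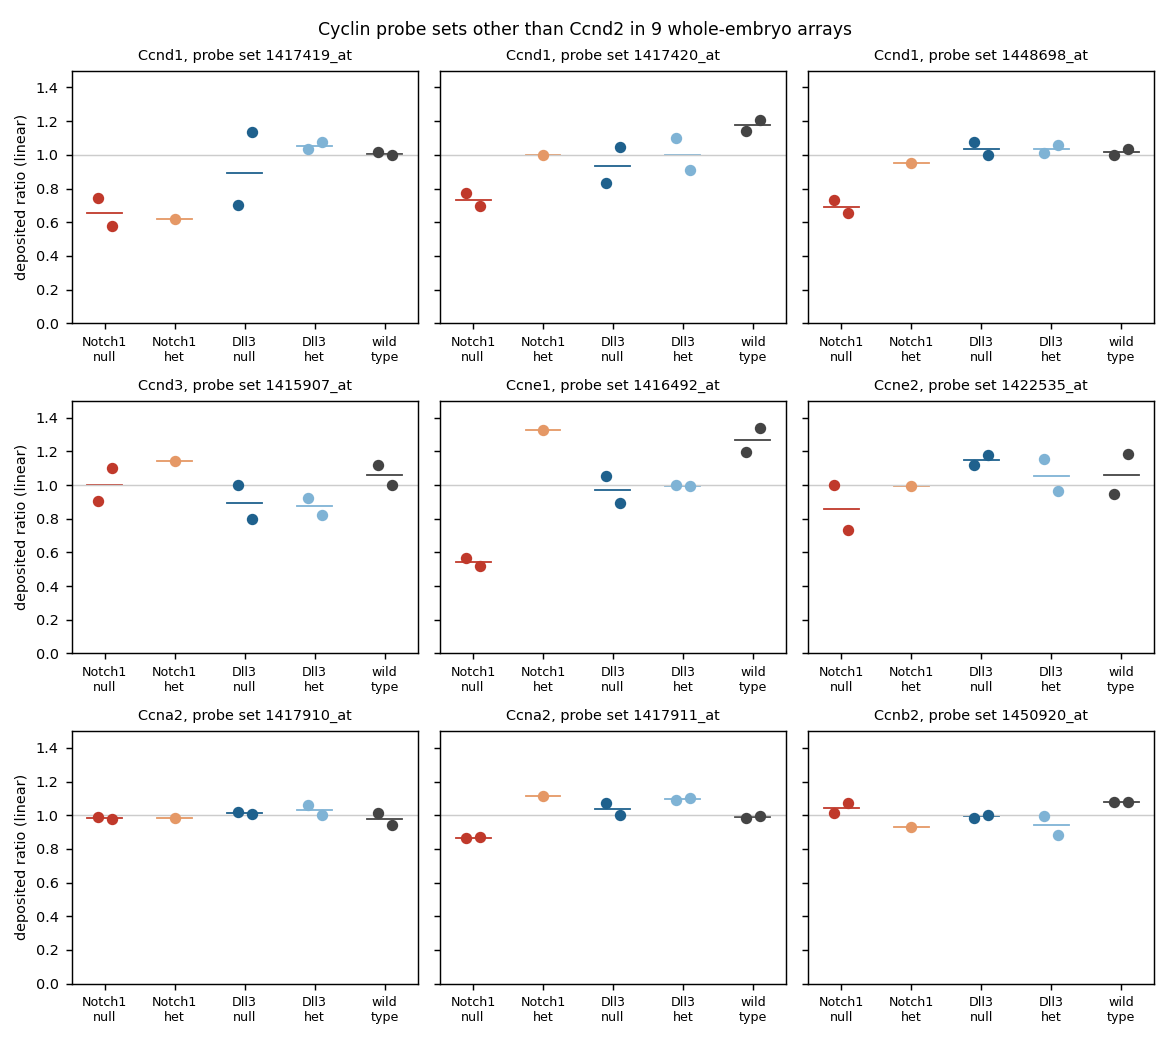
Deposited ratio (linear axis from 0) of the 9 probe sets of Ccnd1, Ccnd3, Ccne1, Ccne2, Ccna2 and Ccnb2, with 1 point per array and a bar at each group's geometric mean. The Notch1 null arrays are lowest for Ccne1 (0.569 and 0.518) and for 1448698_at of Ccnd1 (0.732 and 0.655), while the single Notch1 het array is at 1.324 for Ccne1. They are also lowest at 1417420_at of Ccnd1 (0.772 and 0.694) and, by a smaller margin, at 1417911_at of Ccna2 (0.862 and 0.871).

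Ccnd2 followed another pattern at the 3 of its 7 probe sets that passed in Notch1 null against wild type. There the wild-type arrays stood apart from every other genotype. At probe set 1448229_s_at the ratios were 1.017 and 0.866 in Notch1 null, 1.000 in Notch1 het, 0.820 and 0.962 in Dll3 null, 1.109 and 1.000 in Dll3 het, and 1.843 and 2.042 in wild type. All 7 arrays with a targeted allele lay between 0.820 and 1.109, below both wild-type arrays. Against the same wild-type arrays the log2 difference was -1.05 ± 0.13 in Notch1 null (2.07-fold lower, adjusted p = 0.00292), -0.96 ± 0.16 in Notch1 het (adjusted p = 0.0223), -1.13 ± 0.13 in Dll3 null (adjusted p = 0.0296) and -0.88 ± 0.13 in Dll3 het (adjusted p = 0.0403). Because these comparisons share their controls, they are not 4 separate observations, and Notch1 null and Dll3 null themselves had a log2 difference of 0.08 ± 0.13 (adjusted p = 0.809).

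The 7 Ccnd2 probe sets did not give 1 picture. Probe set 1416123_at gave 1.000 and 0.799 in Notch1 null, 0.965 in Notch1 het, 0.980 and 0.850 in Dll3 null, 1.073 and 1.115 in Dll3 het, and 1.573 and 3.183 in wild type, with the wild-type replicates far apart and above all other arrays. It was 2.50-fold lower in Notch1 null than in wild type (log2 -1.32 ± 0.27, adjusted p = 0.0171), and the log2 difference was -0.82 without wild_type replicate 2. Probe set 1455956_x_at gave 1.068 and 0.826 in Notch1 null, against 1.464 and 1.366 in wild type, and was 1.51-fold lower (log2 -0.59 ± 0.13, adjusted p = 0.0246).

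The other 4 probe sets (1416122_at, 1416124_at, 1430127_a_at and 1434745_at) had log2 differences between Notch1 null and wild type from -0.58 to -0.17 that did not pass. At 1430127_a_at the Notch1 het array stood at 1.212, against 1.124 and 1.011 in wild type, and at 1434745_at it stood at 1.162, against 1.141 and 1.146. All 7 probe sets were lower in Notch1 null and in Dll3 null than in wild type, but in Notch1 het 3 were higher. Affymetrix marks with _s_at or _x_at those probe sets whose probes can match more than 1 transcript, which applies to 2 of the 3 called. The difference between probe sets was not tested, and their positions in the transcript are not given in the sources used here. Averaged over the 7, Ccnd2 was 1.54-fold lower in Notch1 null than in wild type (adjusted p = 0.00649), while the averages of Dll3 null (1.43-fold lower, adjusted p = 0.153), Dll3 het (1.34-fold, 0.113) and Notch1 het (1.32-fold, 0.125) did not pass.

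The Notch1 null call at 1448229_s_at held without each array (adjusted p up to 0.0421). At 1416123_at it ended when either Notch1 null array was left out (0.063 and 0.149) or wild_type replicate 2 (0.06), and at 1455956_x_at it ended without Notch1_null replicate 2 (0.159; log2 -0.41) or when either wild-type array was left out (0.13 and 0.0984). At 1448229_s_at the Notch1 het call ended without either wild-type array (adjusted p up to 0.114), the Dll3 null call without any single array other than the Notch1 het array and Dll3_null replicate 2 (up to 0.381), and the Dll3 het call without any single Notch1 null, Dll3 het or wild-type array (up to 0.206).

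**Figure D2:**
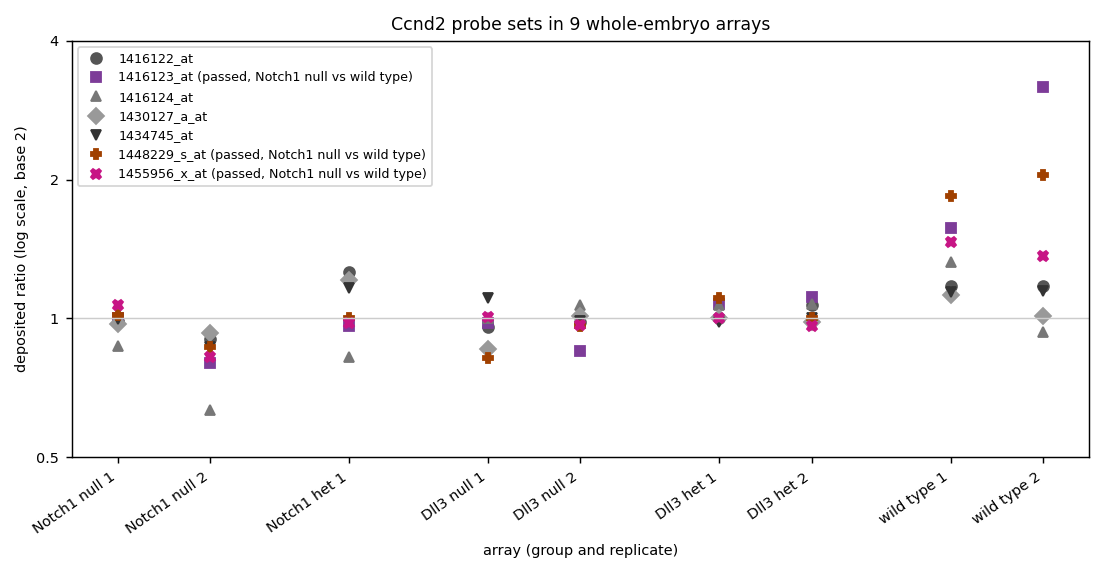
Deposited ratio (log axis, base 2) of the 7 Ccnd2 probe sets on each of the 9 arrays, in colour where Notch1 null differed from wild type and in grey otherwise. At 1448229_s_at the wild-type arrays stand at 1.843 and 2.042 with all other arrays at or below 1.109, and the grey probe sets show no such gap.

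The third D cyclin, Ccnd3, had ratios of 0.904 and 1.104 in Notch1 null, 1.142 in Notch1 het, 1.000 and 0.801 in Dll3 null, 0.925 and 0.824 in Dll3 het, and 1.122 and 1.003 in wild type. Notch1 null overlapped wild type (log2 -0.09 ± 0.15, adjusted p = 0.799), and the lower values of the Dll3 groups did not pass (log2 -0.25 ± 0.15 in Dll3 null and -0.28 ± 0.15 in Dll3 het).

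The probe sets of Ccna2 and Ccnb2, cyclins of S phase, G2 and mitosis, varied least among the cyclin probe sets. Their highest array stood 1.13-, 1.29- and 1.22-fold above the lowest. The next was close, at 1.34-fold for 1434745_at of Ccnd2, and the ratios do not show whether these transcripts were detected. Ccna2 at 1417910_at ranged over all 9 arrays from 0.942 to 1.062, with 0.987 and 0.975 in Notch1 null and 1.013 and 0.942 in wild type. At its other probe set, 1417911_at, it gave 0.862 and 0.871 in Notch1 null, 1.114 in Notch1 het, 1.070 and 1.000 in Dll3 null, 1.090 and 1.101 in Dll3 het, and 0.985 and 0.997 in wild type. The Notch1 null arrays were again the lowest, but the log2 difference from wild type of -0.19 ± 0.10 did not pass (adjusted p = 0.278). Ccnb2 gave 1.016 and 1.075 in Notch1 null, 0.932 in Notch1 het, 0.986 and 1.000 in Dll3 null, 0.997 and 0.885 in Dll3 het, and 1.078 and 1.077 in wild type, with a log2 difference between Notch1 null and wild type of -0.04 ± 0.11 (adjusted p = 0.863).

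In Notch1 null against wild type, 6 of 16 cyclin probe sets fell and 0 rose, against a background of 5.99% of all 22626 tested probe sets lower and 3.46% higher. The 6 belong to Ccne1, Ccnd1 and Ccnd2, and probe sets of 1 gene are not independent. The cyclins were chosen with earlier results of these data known, so these shares describe the set and do not test it. The median log2 difference was -0.44 over the 16 and -0.03 over all probe sets, and 13 of 16 had both Notch1 null arrays below both wild-type arrays, where 34% of all probe sets did, while 0 of 16 had both above (21.2% of all). The count of 6 became 2 when Notch1_null replicate 2 was left out, and 3 and 2 when the wild-type arrays were left out in turn.

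Against Notch1 het 1 of 16 was lower (Ccne1) and 0 higher, where 0.928% of all probe sets were lower and 0.853% higher. In the other comparisons with wild type 1 of 16 was lower, each time 1448229_s_at of Ccnd2, and 0 higher. Among all probe sets the shares lower and higher were 1.77% and 0.99% in Notch1 het, 0.0707% and 0.0177% in Dll3 null, and 0.301% and 0.186% in Dll3 het. Between Notch1 null and Dll3 null 2 of 16 were lower in Notch1 null (Ccne1 and 1448698_at of Ccnd1) and 0 higher, against 3.27% and 2.46% of all. Between Dll3 null and Dll3 het limma called 0 of 16, and 0 had an unadjusted p under 0.05, with log2 differences from -0.26 to 0.13, where 0% of all probe sets were called.

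The separation of arrays gives the same comparisons without a model. In Dll3 null 9 of 16 cyclin probe sets lay below both wild-type arrays on both arrays, against 19.9% of all probe sets, and 1 lay above (20.8%). In Dll3 het 10 lay below (26.6%) and 2 above (20.5%). These counts share the 2 wild-type arrays with the 13 of Notch1 null, so they are not separate observations. With a single array in Notch1 het, 8 lay below wild type (38.8%) and 5 above (38.5%). Both Notch1 null arrays lay below the Notch1 het array at 8 of 16 (44.5%) and above it at 1 (31.7%), and below both Dll3 null arrays at 7 (35.9%) and above them at 1 (17.4%). Between Dll3 null and Dll3 het 4 lay below (12.5%) and 0 above (21%).

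**Figure D3:**
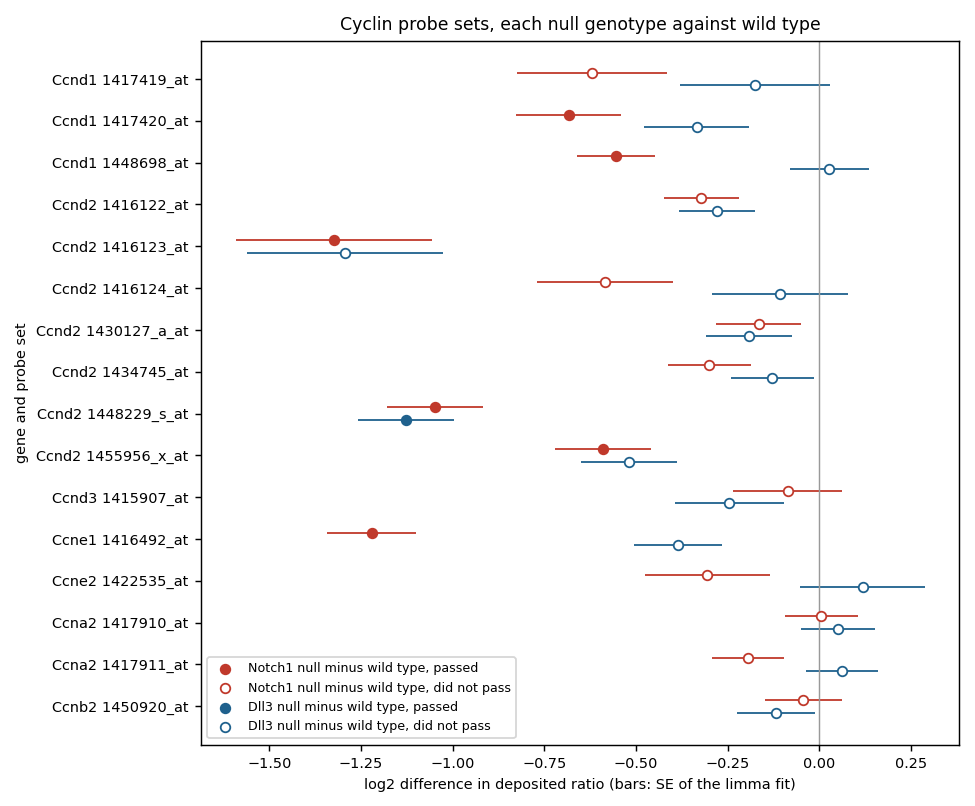
Log2 difference from wild type (horizontal axis, bars are SE of the limma fit) of the 16 cyclin probe sets in Notch1 null (red) and Dll3 null (blue), filled where the adjusted p is under 0.05. Ccne1 lies at -1.22 in Notch1 null and -0.39 in Dll3 null, while 1448229_s_at of Ccnd2 lies at -1.05 and -1.13.

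Other features of the arrays moved with these groups. A marker gene was counted as fallen or risen in Notch1 null against wild type if any of its probe sets passed. Among all probe sets 5.99% were lower and 3.46% higher, shares of probe sets rather than of genes. Of 7 neuron genes 7 fell in Notch1 null (mean log2 ratio -0.64 and -0.51 in Notch1 null, against 0.48 and 0.34 in wild type, with -0.45 in Notch1 het and -0.08 to 0.13 in the Dll3 arrays), of 7 neural progenitor genes 4 fell (-0.60 and -0.70, against 0.18 and 0.10), and of 5 somite genes 3 fell (-0.67 and -0.61, against 0.05 and 0.00). Of 5 heart muscle genes 2 rose (0.26 and 0.29, against -0.16 and -0.22). Of 7 genes of the response to low oxygen 6 rose (1.11 and 1.33 in Notch1 null, against -0.07 and -0.23 in wild type). No gene of the red cell (4 measured), yolk sac endoderm (5) or trophoblast and decidua (3) lists passed. Replicates differed widely in some of these lists, so this does not show equal tissue content. The yolk sac endoderm mean was 0.51 and -0.89 in Notch1 null and -0.32 and 0.86 in wild type. The red cell mean was 0.06 and -0.65 in Dll3 null. The poly-A control dap, an RNA added before labelling, stood at 5.26 and 2.62 in Notch1 null, 1.00 in Notch1 het, 0.36 to 0.40 in the 4 Dll3 arrays, and 6.61 and 9.20 in wild type. The wild-type arrays were thus highest for dap, as they were at the 3 Ccnd2 probe sets called in Notch1 null against wild type. At the other 4 Ccnd2 probe sets they were not both the highest. The part of these features in the cyclin results was not tested. With only the wild-type and Notch1 arrays fitted, Ccne1 remained called in Notch1 null (log2 -1.22, adjusted p = 0.0106), as did 1448229_s_at of Ccnd2 (log2 -1.05, adjusted p = 0.0132), while the Ccnd2 calls at 1416123_at (adjusted p = 0.0581) and 1455956_x_at (0.0609) ended. In that fit 4 cyclin probe sets and 8 probe sets of other cell cycle genes were called, against 6 and 12 with all arrays, and dap still differed between the groups compared. The targeted genes do not check the labels: 1 Notch1 probe set was 1.63-fold higher in Notch1 null than in wild type (adjusted p = 0.0138), and Dll3 was 1.21-fold lower in Dll3 null (adjusted p = 0.486).

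The genes with ratios most like those of the called cyclins, by Pearson correlation over the 9 arrays, differed from cyclin to cyclin. For Ccne1 they were Ptov1 (r = 0.99), Gpn2 (0.99) and Spsb4 (0.98). For Ccnd1 at 1448698_at they were Fam118b (0.99), the mitochondrial ribosomal protein gene Mrpl20 (0.99) and Cycs, cytochrome c (0.99). For Ccnd2 at 1448229_s_at they were Akap9, a scaffold of protein kinase A (0.99), the ubiquitin ligase gene Cbl (0.98) and Mtdh (0.97). The points of each correlation share genotype groups and scaling, and the genes were picked as the highest of all those measured.

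The machinery around the cyclins was described from 6 lists of other cell cycle genes, of which 74 of 81 genes were measured by 130 probe sets. In Notch1 null against wild type 6 probe sets were higher and 6 lower, 9.23% in all, close to the 9.45% called among all probe sets, and the median log2 difference was -0.08 (-0.03 over all). The count of 12 became 4 and 1 when Notch1_null replicates 1 and 2 were left out in turn, 3 and 1 when the wild-type arrays were, and 4 after quantile normalization.

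By probe set, the share lower was 12.5% of 16 for CDKs and their activators and 7.69% of 13 for CDK inhibitors. It was 4% of 25 for regulators of cyclin transcription and 5.56% of 36 for cyclin destruction, against 5.99% of all. Among 10 genes of CDKs and their activators, 1 fell and 9 did not pass. Cdk4, the catalytic partner of the D cyclins, gave 0.860 and 0.820 in Notch1 null, against 1.181 and 1.233 in wild type, at 1422439_a_at (1.44-fold lower, adjusted p = 0.0273) and fell at 2 of its 3 probe sets. Of 9 CDK inhibitors 1 fell: Cdkn1c, which encodes p57, gave 0.724 and 0.829 in Notch1 null, against 1.186 and 1.356 in wild type (1.64-fold lower, log2 -0.71 ± 0.12, adjusted p = 0.00902). Of 15 regulators of cyclin transcription 1 fell: E2f1, an activator of S phase genes, gave 0.792 and 0.820 in Notch1 null, against 1.089 and 1.044 in wild type, at 1 of 2 probe sets (1.32-fold lower, adjusted p = 0.038). Of 16 genes of cyclin destruction 2 fell, both parts of the SCF ubiquitin ligase, Skp1 (1.60-fold lower, adjusted p = 0.023, 1 of 2 probe sets) and Skp2 (1.32-fold lower, adjusted p = 0.0464, 1 of 6). At the called Skp1 probe set the wild-type arrays, at 1.392 and 1.451, lay above every other array. Skp1 stood at 1.000 and 0.786 in Notch1 null, 0.806 in Notch1 het, 1.263 and 1.175 in Dll3 null, and 0.977 and 0.774 in Dll3 het.

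Of 12 mitotic kinases and proliferation markers 2 rose and 0 fell (11.8% of 17 probe sets higher, against 3.46% of all). Yet 10 of the 17 probe sets had a log2 difference below 0. The median was -0.09, in a range from -0.35 to 0.63, so the list did not rise as a whole. Mki67, which marks cycling cells, gave 1.288 and 1.306 in Notch1 null, 1.282 in Notch1 het, and 0.946 and 0.814 in wild type (1.48-fold higher in Notch1 null than in wild type, adjusted p = 0.023). Kif11, a motor of the mitotic spindle, was 1.55-fold higher at 1 of 3 probe sets (adjusted p = 0.0406). There the wild-type arrays, at 0.843 and 0.617, lay below every other array. Kif11 stood at 1.102 and 1.131 in Notch1 null, 0.985 in Notch1 het, 0.938 and 1.013 in Dll3 null, and 1.250 and 1.000 in Dll3 het. Of 12 other genes named as cyclins 3 rose and 0 fell (17.4% of 23 probe sets higher, against 3.46% of all). Ccng2, an unconventional cyclin associated with arrest of the cycle, gave 1.274 and 1.555 in Notch1 null, 0.592 in Notch1 het, 0.920 and 1.000 in Dll3 null, 1.078 and 1.025 in Dll3 het, and 0.791 and 0.675 in wild type at 1448364_at. It was 1.93-fold higher in Notch1 null than in wild type (log2 0.95 ± 0.13, adjusted p = 0.00438) and 1.60-fold higher at its other probe set. Both Ccng2 probe sets were also higher in Notch1 null than in Notch1 het (2.38-fold each) and than in Dll3 null (1.47- and 1.97-fold). Ccng1, a p53 target, rose 1.47-fold (adjusted p = 0.035) and Ccnl2, a cyclin of splicing factors, 1.43-fold (adjusted p = 0.0264), each at 1 of 3 probe sets. Each of these 12 calls ended without 1 or more of the 4 arrays compared; that of Ccng2 at 1448364_at did so only without Notch1_null replicate 2 (adjusted p = 0.0513).

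**Figure D4:**
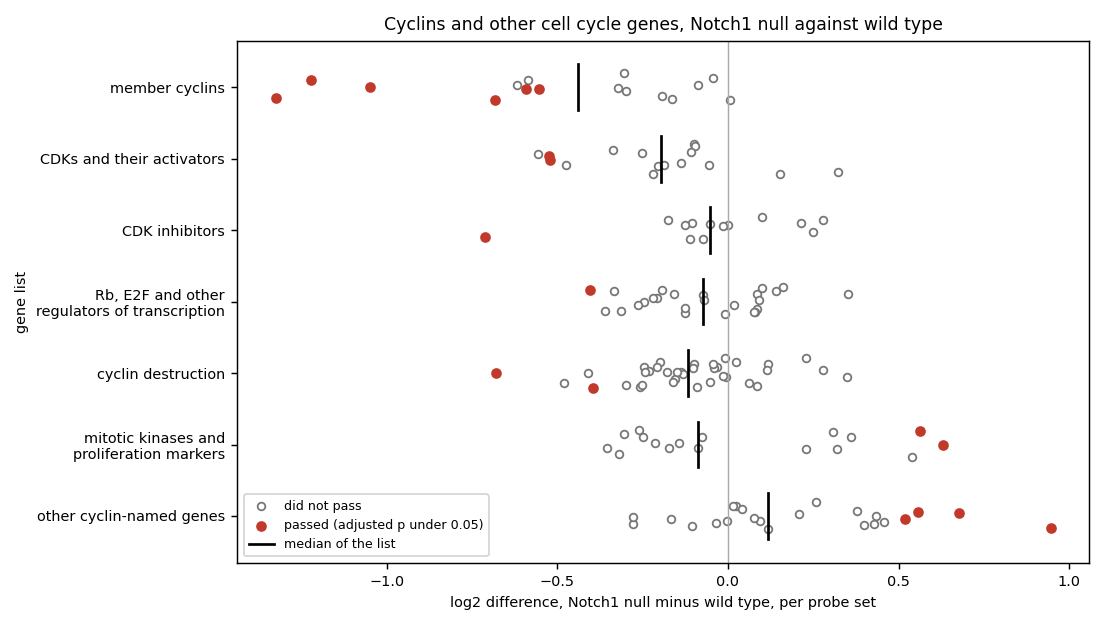
Log2 difference between Notch1 null and wild type (horizontal axis) of each probe set of the cyclins studied and of 6 lists of other cell cycle genes, red where the adjusted p is under 0.05, with a black line at the median of each list. The median is -0.44 for the cyclins studied and lies between -0.20 and 0.12 for the other lists.

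In the other comparisons few of the 130 probe sets were called. The Notch1 het array against wild type had 3 calls (2.31%, with 2.76% among all probe sets): Ccnh, the partner of CDK7, was 2.29-fold lower (adjusted p = 0.0214), and Foxm1, a driver of mitotic genes (1.70-fold, adjusted p = 0.0318), and Anapc1, of the anaphase-promoting complex (1.74-fold, adjusted p = 0.0292), were higher, each at 1 probe set. The count of 3 became 0 when either wild-type array was left out and 1 when either Notch1 null array was. Notch1 null against Notch1 het had 5 calls (3.85%, with 1.78% among all), those of Ccng2, Ccnh, Anapc1 (1.75-fold lower) and E2f4 (1.72-fold lower). Ccnh was called at 1456293_s_at only (1.92-fold higher, 1.000 and 0.978 in Notch1 null, against 0.515 in the single Notch1 het array). Its other probe sets did not pass, with 0.987 and 0.799 against 0.938 at 1418584_at and 0.746 and 0.959 against 1.000 at 1418585_at. Fewer calls remained whenever an array of another group or of Notch1 null was left out. Notch1 null against Dll3 null had 3 calls (2.31%, with 5.74% among all), those of Ccng2 and of Birc5, which encodes survivin (0.804 and 0.759 in Notch1 null, against 1.179 and 1.084 in Dll3 null, 1.45-fold lower, adjusted p = 0.0227), and the count became 0 without Notch1_null replicate 2 and 1 without Notch1_null replicate 1 or Dll3_null replicate 1. Limma called 0 of 130 in Dll3 null against wild type (16 at an unadjusted p under 0.05), 0 in Dll3 het against wild type (26) and 0 in Dll3 null against Dll3 het (9), where 0.0884%, 0.486% and 0% of all probe sets were called.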

How the data were processed

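Whole-embryo RNA was measured on 9 Affymetrix arrays. RMA, which corrects background, normalizes arrays and summarises probes, is named in the submitters' processing notes, with no version. The ratio values deposited by the authors are on a linear scale. Across arrays the median equals 1 for 87.5% of probe sets and exceeds 1 for 0, as when each is divided by a number of its own, a step that no source used here states. All 16 cyclin probe sets have a median of 1. This removes absolute levels, not differences between arrays. All 9 columns were used.

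Log2 ratios were fitted without a pseudocount in limma 3.58.1 (R 4.3.3), 1 mean per genotype, over 22626 probe sets after 64 controls were set aside, with 5.42 prior and 4 residual degrees of freedom. Each of 7 comparisons had its own Benjamini-Hochberg adjustment, and rose, fell, passed and called mean an adjusted p under 0.05. Errors are standard errors of this fit. The single Notch1 het array was assumed to vary like the others. The number of arrays limits precision. The fit was also run on simulated data, for Notch1 null against wild type only. The noise there was drawn independently for each probe set and array, so that run does not bear on array-wide differences such as that of dap. Genes were named from the platform annotation: every cyclin probe set, up to 3 genes of lowest p that passed in each list and comparison, and the 3 genes most correlated with each called cyclin. The members and lists were chosen with earlier results of these data known. Alternatives were other scalings, a pseudocount of 0.1, robust and weighted fits, fits of fewer arrays, probe sets averaged per gene, the replicate number as a block, floor-divided probe sets left out, and leaving out each array.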

Additional observations from a re-analysis of the deposited data

Results flagged for a closer look

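Ccne1 and 1 of the 3 probe sets of Ccnd1 departed from wild type by different amounts in the Notch1 null and the Dll3 null embryos, by a test of that difference itself, in which the shared wild-type arrays cancel. For Ccne1 at 1416492_at the log2 difference of Notch1 null minus Dll3 null was -0.84 ± 0.12 SE (limma adjusted p = 0.00772, lower in 2 of 2 Notch1 null arrays). For Ccnd1 at 1448698_at it was -0.58 ± 0.11 (adjusted p = 0.0168, likewise lower in 2 of 2), while its probe sets 1417420_at (-0.35, adjusted p = 0.205) and 1417419_at (-0.44, adjusted p = 0.263) and the average of the 3 (-0.46, adjusted p = 0.0512) did not pass. Both calls ended when the 4 arrays of these groups were fitted alone, and the dap control was 5.26 and 2.62 in Notch1 null, against 0.36 and 0.38 in Dll3 null. Genotype and any handling that goes with this control cannot be told apart between these groups.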

How the results depend on the processing

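No cyclin call changed direction under any alternative run, though in some runs it could not. Leaving out an array of a group not compared cannot move the log2 difference. Leaving out the single Notch1 het array also leaves the adjusted p of the other groups unchanged. For Notch1 null against wild type, fitting only the arrays compared and fitting only wild-type and Notch1 arrays gave the same values. The tally that follows includes these runs. Over 12 cyclin calls, 171 of 222 recomputed values kept the call and 51 did not. Ccne1 and 1448229_s_at of Ccnd2, both in Notch1 null against wild type, kept it in all 19 alternatives. Over 23 calls of other cell cycle genes, 269 of 426 kept it, 157 did not and 0 reversed.

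Counts of cyclin and other cell cycle probe sets called were as follows. For Notch1 null against wild type (6 and 12), averaging probe sets per gene gave 3 and 7 genes, which by construction counts fewer features, and quantile normalization gave 4 of the other genes. Fitting only wild-type and Notch1 arrays gave 4 and 8. Leaving out an array gave 2 to 7 and 1 to 12. For Notch1 het against wild type (1 and 3), fitting only the arrays compared gave 0 and 0, as did fitting only wild-type and Notch1 arrays. Averaging gave 0 cyclins, quantile normalization 1 other gene, and leaving out an array 0 to 1 and 0 to 3. For Notch1 null against Notch1 het (1 and 5), fitting only the arrays compared gave 0 and 0, and only wild-type and Notch1 arrays 1 other gene. Quantile normalization gave 1 and the replicate block 2 other genes, and leaving out an array 0 to 1 and 0 to 3. For Dll3 null and for Dll3 het against wild type (1 cyclin and 0 others each), fitting only the arrays compared, the replicate block and averaging each gave 0 cyclins. Leaving out an array gave 0 to 1 cyclins in both, and 0 to 2 others in Dll3 het. For Notch1 null against Dll3 null (2 and 3), fitting only the arrays compared gave 0 and 0, averaging 1 cyclin, quantile normalization 1 other gene, and leaving out an array 0 to 2 and 0 to 3. Dll3 null against Dll3 het stayed at 0 in all 19 alternatives. Apart from the construction of the averaged counts, the cause of these changes was not tested.

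Replicates share only a number in the labels. Deviations of replicate 1 from the group mean correlated between groups from -0.10 to 0.16, so the numbers were not taken to pair the arrays. With the replicate block the cyclin counts of the other comparisons were unchanged. With 2 arrays or 1 in each group, a call that ended may reflect the smaller design, and signal over background is not known from ratios.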
